A study of Mus musculus with 2 samples.

Results

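The 9 tubulin genes Tuba1a, Tuba1b, Tuba1c, Tubb2a, Tubb2b, Tubb3, Tubb4b, Tubb5 and Tubb6 were followed through single-cell libraries of mouse iPSCs (induced pluripotent stem cells, made from differentiated cells and able to form all tissues of the body) with and without serum response factor (SRF). They were taken by name from the 27998 genes of both count matrices, and all 9 were detected in both libraries. The cytoplasmic actin genes Actb and Actg1 were set beside them. One library came from SRFΔ/Δ cells (knockout) and the other from SRFf/f cells (wild type, with the floxed alleles unrecombined), both grown with serum and captured on the 10x Genomics Chromium droplet platform. How many clones or cultures went into a library is not given in the sources used here. Each genotype thus has a single library with no replicate, and no test was possible. Every difference below is between these libraries, and every interval is an exact 95% interval of counting error only.

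Tubulin is a dimer of an alpha and a beta chain that polymerises into microtubules, the filaments of the mitotic spindle, of cilia and of intracellular transport. Vertebrates encode several alpha and beta isotypes with different tissue patterns, and new chains are folded by prefoldin, the chaperonin TRiC and the tubulin cofactors. Cells adjust tubulin mRNA to the pool of free dimers: when dimers are abundant, TTC5 recognises the emerging tubulin chain on the ribosome and the message is degraded through the CCR4-NOT deadenylase. Actin genes are adjusted by another route, in which actin monomers hold back the SRF coactivators of the MRTF family and SRF binds a sequence called the CArG box in actin promoters.

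Cells with at least 1000 detected genes and under 5 UMIs (unique molecular identifiers, 1 per captured mRNA molecule) summed over the fibroblast genes Col1a2, Col3a1 and Acta2 were kept, and were split by the share of their UMIs from mitochondrially encoded genes (mt- share). The band under 1% held 244 knockout cells (2844160 UMIs) but only 16 wild-type cells (286036 UMIs). The band of 1 to 10% held 731 knockout cells (18203451 UMIs) and 893 wild-type cells (23270714 UMIs), and cells beyond 10% were left out. The median depth was 8632 and 24423 UMIs per cell in the 2 knockout bands and 16568.5 and 26656 in the wild-type bands. Levels are UMIs per 1000000 UMIs of the band (CPM).

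Srf, the deleted gene, had 3 UMIs in the 731 knockout cells of the 1 to 10% band against 202 in the 893 wild-type cells, and 0 in the 244 knockout cells under 1%, which allows up to 1.30 CPM there (exact Poisson bound). The pluripotency markers summed to 10171 CPM in knockout against 13997 CPM in wild-type cells at 1 to 10%, and 2 of 12, Nanog (62.5 against 101 CPM) and Dppa5a (6777 against 10272 CPM), were beyond 1.5-fold lower. Dppa5a gave most of both sums. Of the 12, only Zfp42 (108 against 78.1 CPM) and Sall4 (83.7 against 70.1 CPM) had a ratio above 0, both named after their values were seen. Primitive endoderm markers were at 381 and 12.5 summed CPM, led by Srgn, Dab2, Col4a1 and Gata6. Counting these markers without Srgn and Col4a1, 108 knockout cells of that band (14.8%) against 4 wild-type cells held at least 5 UMIs. Macrophage markers stood at 135 and 56.1 summed CPM, with Ccl6, Wfdc17 and Lyz2 beyond 1.5-fold higher. Fibroblast markers were at 27.4 and 26.9 summed CPM. That sum includes Col1a2, Col3a1 and Acta2, whose UMIs the choice of cells had limited. Its members went both ways, such as Tagln (2.58 against 8.64 CPM) and Thy1 (10.2 against 5.24 CPM), both named after their values were seen. Markers of multiciliated cells were at 19.0 and 24.6 summed CPM. A raised share of UMIs from chromosome 8, over 1.2 times the wild-type median, was found in 50.3% of knockout and 9.97% of wild-type cells of the band. The libraries shared 2 cell barcodes.

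The tubulin genes differed far less between the genotypes than the actin genes. In the 1 to 10% band the 9 tubulins summed to 2315 CPM (42145 UMIs) in the knockout and 2659 CPM (61867 UMIs) in the wild-type library, a log2 ratio of -0.20 (-0.22 to -0.18). Actb and Actg1 together were at 734 CPM (13363 UMIs) against 2885 CPM (67143 UMIs), a log2 ratio of -1.97, which is 3.93-fold lower in the knockout library. The 6554 genes that reached a mean of 10 CPM had a median log2 ratio of 0.09, and relative to that median the tubulin sum was at -0.29 and the actin sum at -2.06. The median varied with transcript length. It was 0.003 for genes of 1500 to under 2500 bases, where 8 of the 9 members fall, and 0.15 for the next longer class, which holds Tubb5.

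Among the alpha genes, Tuba1b, a widely expressed isotype of dividing cells, was at 800 CPM (787 to 813) in the knockout library and 801 CPM (790 to 813) in the wild type, and these intervals overlap. Tuba1c, another widely expressed alpha gene, was at 69.0 and 66.0 CPM with overlapping intervals. Tuba1a, the alpha gene most used by developing neurons, was at 135 CPM (130 to 140) against 184 CPM (179 to 190), a log2 ratio of -0.45 (-0.52 to -0.38). Of the 3 alpha genes, then, only the interval of Tuba1a left out a ratio of 1.

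The beta genes moved apart from each other. Tubb2b, a gene of the developing nervous system, was at 72.6 CPM (68.8 to 76.6) without SRF and 137 CPM (132 to 142) with it, a log2 ratio of -0.91 (-1.01 to -0.82). Its close paralog Tubb2a was at 9.72 and 13.1 CPM, a log2 ratio of -0.43 (-0.71 to -0.16). Tubb5, the widely expressed beta gene of proliferating cells, was at 817 against 1109 CPM, a log2 ratio of -0.44 (-0.47 to -0.41). Tubb4b, a beta isotype of cilia that many cell types express, was the only member whose ratio lay above 0 with an interval that left 0 out, at 347 against 277 CPM and a log2 ratio of 0.33 (0.28 to 0.38). Tubb6, the class V beta isotype, was at 36.1 against 42.5 CPM, a log2 ratio of -0.23 (-0.38 to -0.09). Tubb3, the beta isotype used as a marker of neurons, was at 28.7 CPM in the knockout and 28.8 CPM in the wild-type library.

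Beyond 1.5-fold, 1 of the 9 tubulins was lower (Tubb2b, 1.89-fold) and none was higher, beside 2.58% of all 6554 genes lower, 7.05% higher and 9.63% in either direction. These genes had to pass 1.5-fold with a counting interval that left out 0. With the totals scaled by TMM, which shifted the median gene by -0.11 on the log2 scale, 4.24% of genes were lower and 4.58% higher, and 1 member was still beyond 1.5-fold. The markers of neural cells, a group that shares Tubb3, Tubb2b and Tuba1a as typical genes, summed to 398 CPM in the knockout library and 591 CPM in the wild type. Most of that came from Stmn2, a stathmin that binds tubulin dimers, at 366 and 556 CPM. The other 13 neural markers summed to 32.3 and 34.7 CPM, with Neurod1 at 6.26 against 3.70 CPM and Elavl3 at 13.8 against 19.7 CPM, both named after their values were seen, and Neurog2 had 0 UMIs in this band of both libraries. Their part in the lower Tubb2b and Tuba1a was not tested.

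**Figure D1:**
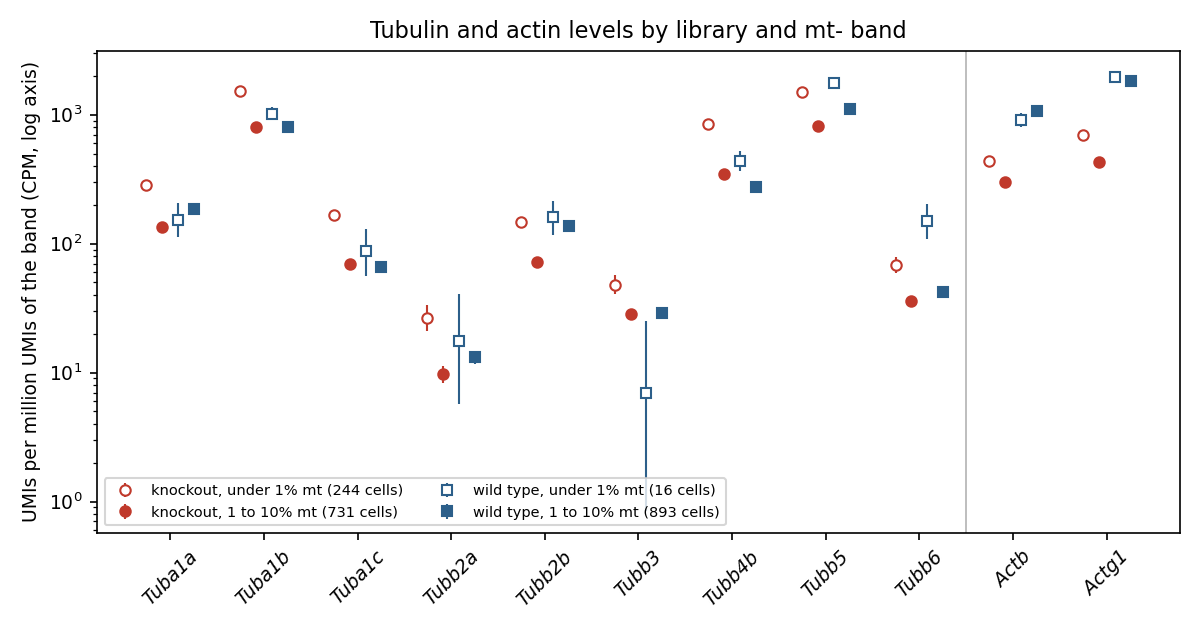
Levels of the 9 tubulin genes and 2 actin genes in CPM on a log axis, by library and mt- band, with 95% Poisson intervals of counting error. The filled symbols (1 to 10% band) of the tubulins lie near each other except for Tubb2b (72.6 against 137 CPM), while Actg1 is at 431 CPM in the knockout and 1816 CPM in the wild type.

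Actb and Actg1 are long-known SRF targets. Actg1, the cytoplasmic gamma actin, was at 431 CPM (7842 UMIs) against 1816 CPM (42258 UMIs), 4.22-fold lower in the knockout library. Actb, the cytoplasmic beta actin, was at 303 against 1069 CPM, 3.53-fold lower. In single cells, 14 of 731 knockout cells lay above the wild-type median of actin UMIs, and 296 of 731 lay above the wild-type median of tubulin UMIs. The wild-type library held 0.921 tubulin UMIs (0.911 to 0.932) for each actin UMI, and the knockout library held 3.15 (3.09 to 3.22).

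The promoters were searched because SRF binds CArG boxes, and the part of such boxes in the ratios was not tested. Promoter windows from 250 bases before to 50 bases after the start site were available from RefSeq (GRCm38.p6) for 7 of the 9 tubulins and for Actg1. Those of Tubb2b (the tubulin beyond 1.5-fold lower), Tubb6 and Actb were not analysed here. Stretches from 200 to 51 bases before the start are shown for Actg1, for Tubb4b, the tubulin with the highest knockout over wild-type ratio in the 1 to 10% band, and for Tubb5, a beta gene with a ratio below 0. The Actg1 stretch is chr11:120348546-120348695, that of Tubb4b is chr2:25224753-25224902 and that of Tubb5 is chr17:35838352-35838501. All are on the minus strand and written 5′ to 3′, with the CArG box (Actg1) or the match with 1 mismatch to it (Tubb4b, Tubb5) in capitals.
Actg1: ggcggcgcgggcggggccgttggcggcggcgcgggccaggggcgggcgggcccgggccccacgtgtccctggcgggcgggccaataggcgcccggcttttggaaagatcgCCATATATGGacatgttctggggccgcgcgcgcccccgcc
Tubb4b: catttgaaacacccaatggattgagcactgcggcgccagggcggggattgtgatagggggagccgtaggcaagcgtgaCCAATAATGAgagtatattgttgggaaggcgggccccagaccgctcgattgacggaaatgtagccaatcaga
Tubb5: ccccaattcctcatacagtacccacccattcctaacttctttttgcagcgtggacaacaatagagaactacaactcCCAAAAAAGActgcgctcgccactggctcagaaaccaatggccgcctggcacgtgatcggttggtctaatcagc

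The CArG box of Actg1, CCATATATGG, begins 90 bases before the start site. A CArG box was in 0 of the 7 tubulin windows and in 1.63% of 32851 promoter windows of the same length. The windows of Tuba1a, Tuba1b and Tubb3 lie mostly inside the genes as annotated in GENCODE M21. Less sequence before these genes was therefore searched. Tubb4b and Tubb5 each held a stretch with 1 mismatch, beginning 122 and 124 bases before the start, and in both it was G10A, counted from 1 at the 5′ end of the box. Such a stretch was in 21.1% of all windows. The GC box GGGCGG was in 6 of 7 tubulin windows against 35.7% of all, CCAAT in 5 of 7 against 37.4%, and TATAAA in 2 of 7 against 13.6%, each counted on both strands. The stretch of Tubb4b in capitals overlaps 1 of its 5 CCAAT matches. These are matches of letters in 1 window per gene.

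In the knockout library, the cells under 1% mt- share held more tubulin mRNA per UMI than the cells of 1 to 10%, for every member. The 9 genes summed to 4614 CPM (4535 to 4694) in the 244 cells under 1% and 2315 CPM in the 731 cells of 1 to 10%, 1.99-fold higher, a log2 ratio of 0.99 (0.97 to 1.02). All 9 were beyond 1.5-fold higher, beside 17.5% of 6039 genes higher, 33.4% lower and 51% in either direction. The ratios ran from 0.75 for Tubb3 (48.2 against 28.7 CPM) to 1.46 for Tubb2a (26.7 against 9.72 CPM).

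Tubb4b was at 849 CPM (2416 UMIs) in the knockout cells under 1% and 347 CPM (6315 UMIs) in those of 1 to 10%, 2.45-fold higher. Tuba1c was 2.41-fold higher, at 166 against 69.0 CPM, and Tuba1a 2.12-fold higher, at 287 against 135 CPM. The most counted members, Tuba1b (1526 against 800 CPM) and Tubb5 (1495 against 817 CPM), were 1.91-fold and 1.83-fold higher. Tubb2b was at 147 against 72.6 CPM and Tubb6 at 68.2 against 36.1 CPM, so none of the 9 members was lower in the cells under 1%.

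Per cell, the tubulin genes took a median of 48.9 of 10000 UMIs in the knockout cells under 1% and 21.5 in those of 1 to 10%, and 237 of the 244 cells under 1% lay above the latter. The actins were higher by less, with Actg1 at 699 against 431 CPM, 1.62-fold, and Actb at 435 against 303 CPM, 1.43-fold.

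**Figure D2:**
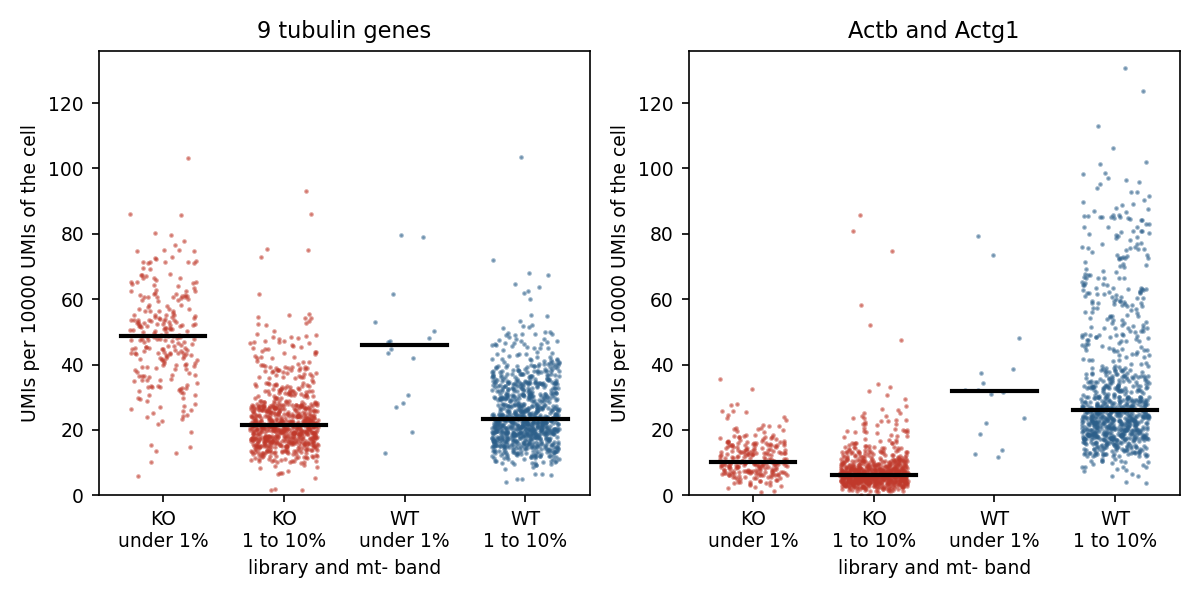
UMIs of the 9 tubulin genes (left) and of Actb and Actg1 (right) per 10000 UMIs of the cell, 1 point per cell, by library (KO knockout, WT wild type) and mt- band, with black bars at the medians. The tubulin medians are 48.9 and 21.5 in the knockout bands and 45.8 and 23.3 in the wild-type bands, while the actin medians are 10.3 and 6.36 against 31.9 and 26.0.

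These knockout cells also differed in depth and in which transcripts they held. Genes whose longest coding transcript had 4000 bases or more had a median log2 ratio of -1.25 between the bands, and 68.9% of them were beyond 1.5-fold lower. Genes of 1500 to under 2500 bases, where 8 of the 9 members fall (1598 bases for Tubb4b to 2182 for Tubb2b), had a median of 0.29 and 30.3% beyond 1.5-fold higher. Tubb5, at 2649 bases, lay in the next class, where the median was -0.18 and 13.6% of genes were higher. Primitive endoderm markers were at 130 summed CPM under 1% against 381 at 1 to 10%, macrophage markers at 7.74 against 135 and neural markers at 558 against 398. Of the neural sum Stmn2 gave 549 and 366 CPM, and the other 13 neural markers were at 8.79 against 32.3 CPM. The part of these markers in the tubulin difference was not tested. The 7 measured chaperonin subunits were all beyond 1.5-fold higher too (0.70 to 1.35). Among cells of at least 15000 UMIs, 56 and 615 in number, the tubulin sum still differed by 0.85. With TMM scaling, which raised every log2 ratio by 0.30, 31.5% of genes were higher and 26.5% lower, and no member could fall back by it. Totals without mt and ribosomal protein genes shifted the median gene by -0.10. With them all 9 members were beyond 1.5-fold higher, the lowest being Tubb3 at 0.65, beside 13.5% of genes higher and 36.1% lower. With an upper limit of 5% mt- share Tubb3, at 0.58, fell just short of 1.5-fold and 8 of 9 members were beyond it.

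In the wild-type library the tubulin sum was at 3797 CPM under 1% and 2659 CPM at 1 to 10%, a log2 ratio of 0.51 (0.43 to 0.60). Here 3 of 9 members were beyond 1.5-fold higher (Tubb4b, Tubb5 and Tubb6) and 1, Tubb3, was lower, beside 12.4% of 6386 genes higher, 6.33% lower and 18.8% in either direction. The Tubb3 value rests on 2 UMIs in the 16 cells under 1% (6.99 against 28.8 CPM), a log2 ratio of -1.72 (-5.09 to -0.18). Without 1 wild-type cell, which held 32 of the 43 Tubb6 UMIs of that band, Tubb6 was at 48.4 against 42.5 CPM, 1.14-fold (0.566 to 2.04), and Tubb5 at 1592 against 1109 CPM, 1.44-fold (1.29 to 1.59). Tubb4b was then at 453 against 277 CPM, 1.64-fold (1.33 to 1.99), so of these 3 only Tubb4b was beyond 1.5-fold without that cell. Among wild-type genes of 1500 to under 2500 bases 18.4% were higher. The actin sum was at 2867 and 2885 CPM, and these intervals overlap.

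Across finer steps of mt- share the tubulin level went down step by step in both libraries and then levelled off. In knockout cells the sum was 3355 CPM at 1 to 2% mt- share, 2846 at 2 to 3%, 2433 at 3 to 4%, 2096 at 4 to 5%, 1872 at 5 to 6% and 1946 at 6 to 10%. In wild-type cells it was 3273, 3116, 2581, 2133, 1844 and 1959 CPM over the same steps. Levels at the same step were thus close in the 2 libraries, and the actins were not: the knockout sum ranged from 612 to 904 CPM over these 6 steps and the wild-type sum from 2335 to 3630 CPM. The chaperonin genes followed a similar course up to 6%, from 3447 CPM in the knockout cells and from 3570 CPM at 1 to 2% to 1760 CPM at 5 to 6% in the wild type. At 6 to 10% their sum was at 1660 CPM in the knockout cells and higher again, at 2037 CPM, in the wild type.

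Knockout cells of the 1 to 10% band had a median mt- share of 4.38% and wild-type cells 3.48%. When the genotypes were compared within these 6 steps and averaged by the wild-type UMIs, the tubulin sum differed by -0.08 (-0.10 to -0.06) on the log2 scale, against -0.20 for the band as a whole, and the 6 steps ranged from -0.13 to 0.04. The actin sum differed by -1.90 within the steps. For Tubb2b the ratio within steps was -0.84 (-0.95 to -0.74), below 0 in 6 of 6. Tubb5 was at -0.27, below 0 in 6 of 6, Tuba1a at -0.28, below 0 in 6 of 6, and Tubb4b at 0.39, above 0 in all 6 steps. Tuba1b was at 0.09 (0.06 to 0.12) and Tubb3 at 0.20 (0.03 to 0.38). Over all cells up to 10%, both bands in 1 sum, the sum was at 2626 CPM in the knockout and 2672 CPM in the wild-type library, a log2 ratio of -0.025. There 1 of 9 members was beyond 1.5-fold, Tubb2b at -0.73, beside 2.57% of 6470 genes lower, 4.79% higher and 7.36% in either direction.

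**Figure D3:**
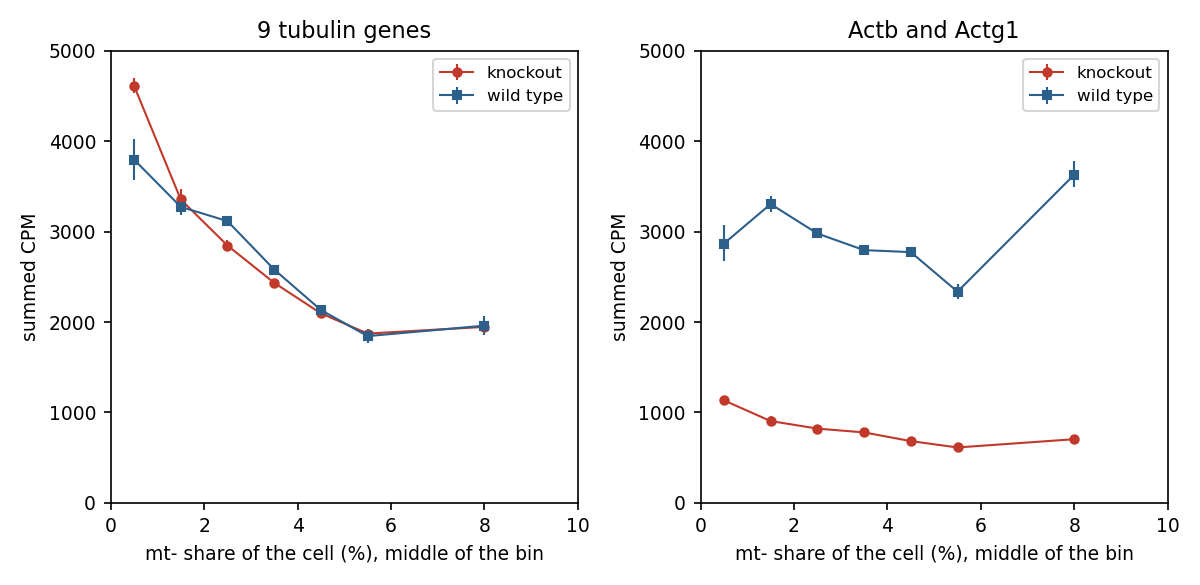
Summed CPM of the 9 tubulin genes (left) and of Actb and Actg1 (right) in cells grouped by mt- share, plotted at the middle of each step, for the knockout and the wild-type library, with 95% Poisson intervals of counting error. The tubulin curves run from 4614 to 1946 CPM in the knockout and from 3797 to 1959 CPM in the wild type and lie close together above 1%, while the actin curves stay apart.

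Under 1% mt- share the comparison of the genotypes rests on 16 wild-type cells. The 2 groups of cells also differed by transcript length. Genes of 4000 bases or more had a median log2 ratio of -0.81 here, and 35.4% were beyond 1.5-fold lower. Between the wild-type bands their median was -0.02. Genes of 1500 to under 2500 bases were at a median of -0.09 here, with 9.28% higher and 15.2% lower. The part of length in the tubulin ratios was not tested. The tubulin sum was at 4614 CPM in the knockout and 3797 CPM in the wild-type library, a log2 ratio of 0.28 (0.19 to 0.37), and the median gene of 5815 was at -0.20. Tuba1a (287 against 154 CPM), Tuba1c (166 against 87.4 CPM) and Tubb4b (849 against 441 CPM) were 1.84-fold, 1.87-fold and 1.92-fold higher in the knockout library. Tubb3 had 137 UMIs in 244 knockout cells and 2 UMIs in the 16 wild-type cells, a log2 ratio of 2.47 with an interval from 0.90 to 5.84. With Tubb6 at 68.2 against 150 CPM, 4 of 9 members were beyond 1.5-fold higher and 1 lower, beside 8.39% of genes higher, 19.7% lower and 28% in either direction. With TMM scaling, which shifted the median gene by 0.43, 23.5% of genes were higher and 11.1% lower. Tuba1b (1526 against 1021 CPM) stood at 0.58 (0.41 to 0.76), just inside 1.5-fold.

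A single wild-type cell of 58626 UMIs, 20.5% of the UMIs of that band, carried 32 of the 43 Tubb6 UMIs and 141 of the 503 Tubb5 UMIs. Without it Tubb6 stood at 48.4 CPM in the wild-type library, the log2 ratio was 0.44 (-0.38 to 1.52) in place of -1.15, and 18.4% of all genes were beyond 1.5-fold in either direction in place of 28%. The sum stood at 0.32 without that cell. When each cell was given the same weight whatever its depth, the sum was at 0.13 and Tuba1a at 0.20 (-0.15 to 0.58). Tuba1a also fell short of 1.5-fold with the fibroblast-marker cells kept, at 0.55, and with a band limit of 2% in place of 1%, at 0.26. Actb and Actg1 were 2.11-fold and 2.79-fold lower in the knockout library in this band.

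**Figure D4:**
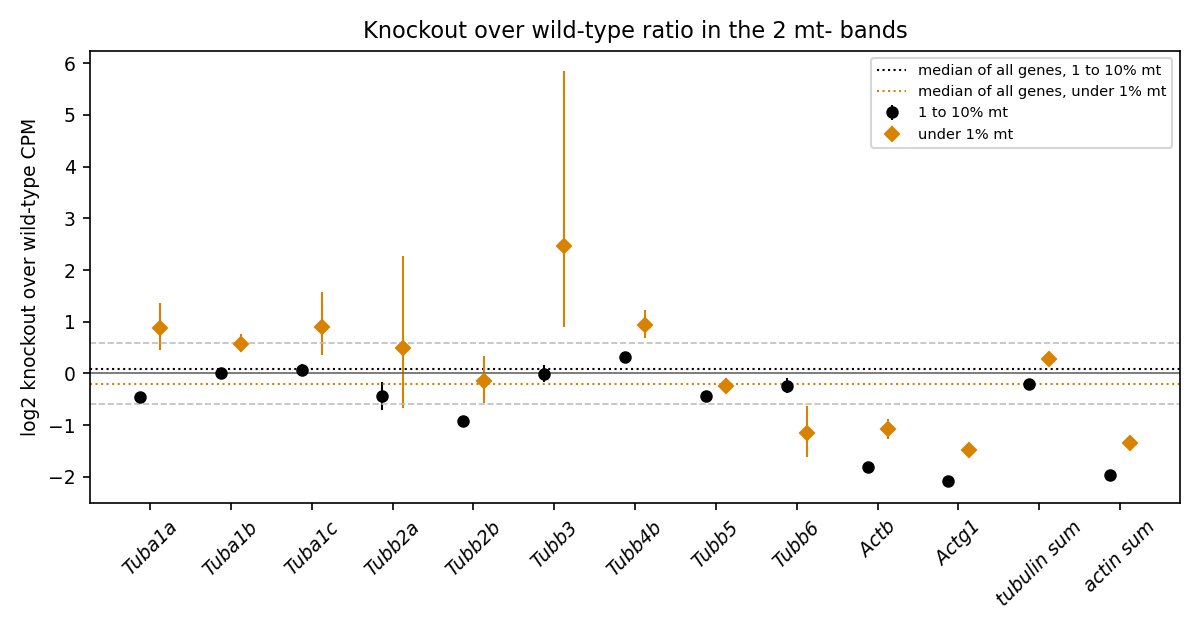
Log2 ratio of knockout over wild-type CPM for each gene and for the sums, in the bands of 1 to 10% (black circles) and under 1% mt- share (orange diamonds), with 95% intervals of counting error, the median of all genes (dotted) and the 1.5-fold lines (dashed). The tubulin sum is at -0.20 and 0.28 and the actin sum at -1.97 and -1.34. Tubb5 under 1% lies below 0 here and at 0.20 with TMM scaling, and Tuba1c at 1 to 10% lies above 0 here and at -0.04.

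The make-up of the tubulin pool also differed between the libraries. In the 1 to 10% band Tubb4b gave 26.5% (25.9 to 27.0) of the UMIs of the 6 beta genes in the knockout library and 17.2% (16.8 to 17.6) in the wild type. The share of Tubb5 was 62.3% against 69.0%, and that of Tubb2b 5.54% against 8.52%. Under 1% mt- share Tubb4b gave 32.2% (31.2 to 33.3) of beta UMIs in the knockout and 17.4% (14.7 to 20.3) in the wild type. Within the alpha genes the shift was smaller: Tuba1a gave 13.4% of knockout and 17.5% of wild-type alpha UMIs in the 1 to 10% band, and Tuba1b 79.7% and 76.2%. There were 0.766 alpha UMIs (0.751 to 0.781) for each beta UMI in the knockout library and 0.655 (0.644 to 0.665) in the wild type. These shares are of UMIs, and serve to compare libraries, not isotypes.

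The shares of cells with a UMI were compared after thinning each cell to 5000 UMIs, which left 724 knockout and 888 wild-type cells of the 1 to 10% band and dropped 7 and 5 shallower ones. Tubb2b was found in 28.7% (25.5 to 32.2) of knockout and 47.2% (43.9 to 50.5) of wild-type cells. Tubb4b was found in 76.2% (73.0 to 79.3) against 65.3% (62.1 to 68.4). For the other 7 members the intervals overlapped. Tuba1a was at 45.9% against 51.5%, Tubb6 at 14.8% against 18.2%, Tubb3 at 13.3% against 10.5% and Tuba1c at 27.6% against 25.9%. Tuba1b and Tubb5 were found in 95.2% to 97.3% of the cells of both libraries, and Tubb2a in 4.70% and 5.63%. Without thinning, Tubb2b was found in 71.8% of knockout and 86.5% of wild-type cells. In the knockout cells under 1% (227 after thinning, 17 dropped) the shares were 55.9% for Tuba1c, 93.8% for Tubb4b, 22.0% for Tubb3 and 28.6% for Tubb6. Every cell type makes tubulin, so no group of cells gave a background share for free RNA.

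Cell-to-cell spread was measured as the squared coefficient of variation (CV2, variance over squared mean) of the thinned counts, for the 4 members with a mean of at least 0.5. Tuba1b had a CV2 of 0.389 in knockout and 0.457 in wild-type cells, Tubb4b 0.893 and 1.15, and Tubb5 0.419 and 0.337. Tuba1a had 2.16 and 3.1, and 1 wild-type cell held 130 of its UMIs. The log2 ratios of -0.52 to 0.31 compare with a median of 0.04 over 1135 genes, whose 10th and 90th percentiles were -0.28 and 0.38. For Actg1 the CV2 was 1.02 against 0.318, a log2 ratio of 1.68, at a mean of 2.31 against 8.89 thinned UMIs.

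Tubulin levels were then read against the cell cycle, since mitotic cells build spindles from tubulin. The cells of the 1 to 10% band were ranked by the share of 53 G2/M genes (such as Hmgb2 and Cks1b, without tubulins) and split into a lower, a middle and an upper group of equal size. Tuba1c was at 83.9 CPM in the upper and 57.0 CPM in the lower group of the knockout library, a log2 ratio of 0.56 (0.36 to 0.76), and the ratio was 1.10 (0.90 to 1.30) in the wild type. Both libraries thus held more Tuba1c where the G2/M share was high. Tubb4b stood at 424 against 277 CPM, or 0.61, in the knockout and at 0.83 in the wild type. Tubb3 stood at 0.80 and 0.44, with wide intervals. Tuba1a, Tuba1b, Tubb5 and Tubb6 stood above 0 in both libraries too, from 0.14 to 0.37, with intervals that left out 0. The tubulin sum was at 0.31 and 0.28, and the median of all genes at 0.07 and 0.08. Tubb2b showed no such step, with 0.00 in both libraries, and Tubb2a, at -0.02 and -0.14, had intervals that held 0. Actg1 stood at -0.03 and 0.00, and Actb at -0.03 and -0.20. Beyond 1.5-fold higher were Tubb3 and Tubb4b in the knockout, beside 3.25% of all genes, and Tuba1c and Tubb4b in the wild type, beside 2.6%. Within the groups, the knockout over wild-type ratio of the tubulin sum was -0.20, -0.21 and -0.17, while that of Tuba1c went from 0.42 (0.19 to 0.65) in the lower group to -0.12 (-0.29 to 0.04) in the upper.

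**Figure D5:**
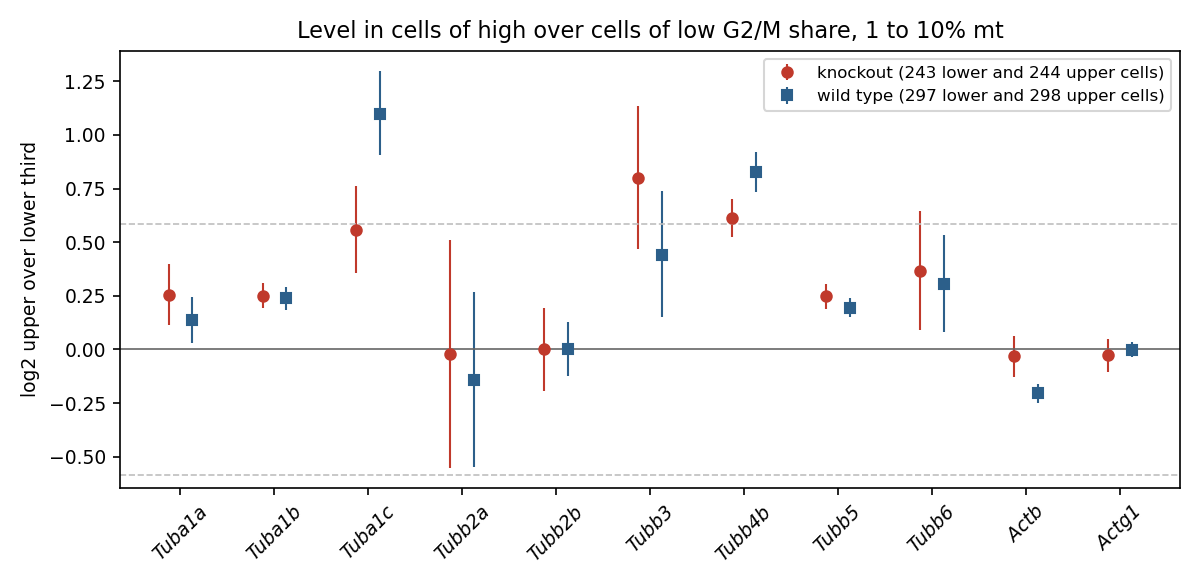
Log2 ratio of CPM in the cells of highest over the cells of lowest G2/M share, for each tubulin and actin gene, in the 1 to 10% band of the knockout and the wild-type library, with 95% intervals of counting error and 1.5-fold lines (dashed). Tuba1c (0.56 and 1.10) and Tubb4b (0.61 and 0.83) are above 0 in both libraries, and Tubb2b is at 0.00 in both.

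Several members differed inside the knockout library with other properties of the cells. In the 108 cells with at least 5 primitive endoderm UMIs, counted as above, Tuba1c was at 114 CPM against 61.6 in the other 623 cells of the 1 to 10% band, Tubb2a at 16.8 against 8.57 and Tubb6 at 46.4 against 34.5. Tubb3 was at 8.20 against 32.0 CPM there, Tubb2b at 47.6 against 76.7 and Tuba1a at 91.3 against 142. The lowest ratios in these cells were thus those of Tubb3, Tubb2b and Tuba1a. Tubulin as a whole differed by little, at 2220 against 2331 CPM, while the actin sum was at 1087 against 676 CPM. Without those cells Tubb2b stood at -0.84 against wild type, and Tubb2a, at -0.60 (-0.91 to -0.31), became a second member beyond 1.5-fold lower.

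Tubb3 lies on chromosome 8 (chr8:123411424-123422015), and cells with a raised share of that chromosome held 34.5 CPM of Tubb3 against 22.4 CPM in the other knockout cells of the band. Among cells with the usual share, 363 and 804 in number, Tubb3 stood at -0.34 (-0.58 to -0.10) against wild type in place of -0.01. Tubb2b, on chromosome 13 (chr13:34126748-34130466), stood at -0.68, and Tubb5, on chromosome 17 (chr17:35833921-35838306), at -0.60 and so beyond 1.5-fold. The part of this imbalance in the values over all cells was not tested.

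All 9 members are protein-coding genes of 4 exons in their longest annotated form (GENCODE M21, GRCm38). Tuba1b (chr15:98931425-98934565), Tuba1a (chr15:98949837-98953703) and Tuba1c (chr15:99029891-99038110) lie close together, Tubb2a (chr13:34074274-34078007) lies near Tubb2b, and Tubb4b is at chr2:25222160-25224702. The annotated gene Gm49450 overlaps Tuba1a and Tuba1b on the same strand, Gm20388 overlaps Tubb3, Gm41396 lies opposite Tuba1b and Fam166a opposite Tubb4b. How reads shared by these genes or by the near-identical paralogs were counted is not given in the sources used here, so values of single isotypes carry that uncertainty and the sums less of it.

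The genes that fold, nucleate and bind tubulin mostly stayed within 1.5-fold between the genotypes at 1 to 10% mt- share, as did nearly all genes, of which 7.05% were higher, 2.58% lower and 9.63% beyond it in either direction. Of the 7 measured subunits of the chaperonin 0 were beyond it, with a median log2 ratio of -0.16 (Cct2 388 against 415 CPM, Tcp1 370 against 414 CPM). Of 6 prefoldin subunits 0 were beyond, with a median of -0.22 (Pfdn1 270 against 317 CPM, Pfdn2 257 against 289 CPM), and of 6 tubulin cofactors 0, with a median of -0.17 (Tbca 239 against 269 CPM, Tbcb 105 against 118 CPM). The medians of these 3 folding lists lay below the 0.09 of all genes. The 10 measured genes of tubulin autoregulation had a median of 0.29 and 0 beyond 1.5-fold (Cnot1, the CCR4-NOT scaffold, 97.4 against 73.1 CPM, and Cnot3 73.2 against 53.1 CPM).

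Of 13 nucleation genes 1 was higher, the augmin subunit Haus8 (61.1 against 35.4 CPM, log2 0.79). Of 19 genes for microtubule-associated proteins and stathmins 2 were higher and 4 lower, beside 7.05% and 2.58% of all genes. The minus-end binder Camsap3 was at 20.5 against 10.8 CPM (0.93) and Map1s at 21.6 against 12.9 CPM (0.75). Map1b, a neuronal microtubule protein, was at 27.1 against 45.6 CPM (-0.75), and Stmn2 stood at -0.60. Among 7 tubulin-modifying enzymes 0 were beyond 1.5-fold (Svbp, the partner of the vasohibin carboxypeptidases, 62.7 against 70.7 CPM), and 0 of 53 G2/M genes. The other measured tubulins, Tuba4a (91.1 against 71.6 CPM) and the gamma-tubulin Tubg1 of the nucleating ring (35.8 against 39.5 CPM), stayed within 1.5-fold too, and the remaining 9 of the list were under 10 CPM, Tubal3 and Tubb1 at 0 UMIs in both libraries.

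Between the 2 knockout bands 17.5% of all genes were beyond 1.5-fold higher, 33.4% lower and 51% either, and the counts of these lists stand beside that. All 7 chaperonin subunits (Cct2 636 against 388 CPM, Tcp1 601 against 370 CPM), 3 of 6 prefoldin subunits, 3 of 5 cofactors and both Tuba4a and Tubg1 were beyond 1.5-fold higher in the cells under 1%. Of the cofactors 1 was beyond 1.5-fold lower. Of 10 autoregulation genes 2 were higher and 2 lower, which does not set them apart from all genes. Cnot1 was at 14.8 CPM under 1% against 97.4 CPM at 1 to 10%. Ttc5, named here after its values were seen because it recognises tubulin chains, was at 27.1 against 12.7 CPM, a log2 ratio of 1.09 (0.70 to 1.46). Of 19 microtubule-associated genes 4 were higher and 8 lower, near the shares over all genes. The lengths of these genes were not set beside the shift of long transcripts described above, and the part of that shift in their values was not tested.

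Across cells of the 1 to 10% band, the 5 genes with the highest Spearman correlation to the summed tubulins, averaged over the libraries, were Npm1, Hspa8, Gapdh, Ubb and Ran. Their correlations of thinned counts were 0.42, 0.36, 0.38, 0.42 and 0.39 over 724 knockout cells and 0.37, 0.43, 0.39, 0.33 and 0.34 over 888 wild-type cells. The median over 1131 genes was 0.03 and 0.02. Genes encoded in mitochondria stood at the low end, with mt-Co2 at -0.38 and -0.30. Actg1 reached 0.23 among knockout and 0.43 among wild-type cells, and Actb 0.12 and -0.04. All these counts share a library and a fixed total of UMIs per cell, so a gene that takes more UMIs leaves fewer for the rest.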

How the data were processed

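The deposited matrices hold whole-number UMI counts per gene and cell, not normalised, per the file headers. Cell Ranger 2.0.0, Seurat 3.1.1 and build mm10 are named in the submitters' processing notes. Which step each served, the annotation and the rule for calling cells are not given in the sources used here. The deposited libraries held 1073 knockout cells (22277996 UMIs) and 954 wild-type cells (24005849 UMIs). Cells with under 1000 genes (5 and 2), with 5 or more fibroblast UMIs (22 and 10) or beyond 10% mt- share (71 and 33) were left out.

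Counts were summed per library and band and scaled to CPM, with 0.5 counts added to both sums of a log2 ratio. A gene was beyond 1.5-fold when its ratio passed that size, its interval left out 0 and its mean was at least 10 CPM. Poisson intervals were used for levels, conditional binomial ones for ratios and Clopper-Pearson for shares. They cover counting error only. Genes with no UMI in 1 group keep a fitted ratio that depends on the added count. The functions for calls and thinning were tested on simulated data. Scrublet in scanpy 1.11.5, at 0.8% per 1000 cells, called 3 of 975 knockout and 5 of 909 wild-type kept cells as doublets. These cells stayed in, and leaving them out is among the alternatives. TMM factors came from edgeR 4.0.16, the alternative size factors were medians of ratios, and motifs were searched in RefSeq windows. Gene IDs matched GENCODE M21 for 27645 of 27998 genes (98.7%).

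The members, the lists and the tests were chosen with earlier results of these data known. Text names the 9 members, Actb, Actg1 and Srf, up to 4 genes per list of largest change beyond 1.5-fold at 1 to 10% mt- share (or, with none, up to 2 of highest CPM), and the 5 genes most correlated with the summed members. The CCAAT search, the steps of mt- share, the classes by length the single wild-type cell left out and the neural markers without Stmn2 were added after the data were seen. Bulk RNA sequencing named in the series' design was not used here.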

Additional observations from a re-analysis of the deposited data

Results flagged for a closer look

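The knockout over wild-type ratio pointed in opposite directions in the 2 mt- bands, with both counting intervals leaving out 0, for the tubulin sum, for the alpha genes together and for Tuba1a. The ratio under 1% exceeded that at 1 to 10% by 0.48 (0.39 to 0.57) on the log2 scale for the sum, by 0.71 (0.56 to 0.87) for the 3 alpha genes and by 1.33 (0.89 to 1.77) for Tuba1a. The shift was not particular to the tubulins. For the actin sum it was 0.63 (0.52 to 0.75), from -1.97 to -1.34, with no change of sign. With 1 library per genotype the difference between the bands was not tested, and it rests on 16 wild-type cells. The tubulin level itself varied with mt- share in both libraries, as the values by finer steps show. With each cell weighted alike the under 1% ratio of Tuba1a was 0.20 (-0.15 to 0.58).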

How the results depend on the processing

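No paired analysis was possible because there is a single library for each genotype, and for the same reason no replicate could be left out. A value counts as moved when it left its counting interval and shifted by over 0.1 on the log2 scale, and a count when it changed by over 1.5 times. The tubulin sum at 1 to 10% mt- share (main value -0.20) was -0.31 with TMM, -0.32 with medians of ratios, -0.025 with both bands together and -0.076 within narrow steps of mt- share, a setting chosen after seeing the data. Under 1% (0.28) it was 0.72, 0.76 and, with each cell weighted alike, 0.13. The actin sum (-1.97) was -2.08 with TMM, -2.09 with medians of ratios, -1.68 with fibroblast-marker cells kept, -2.09 without primitive endoderm cells and -1.87 with both bands together. Between the knockout bands the tubulin sum (0.99) was 1.30 with TMM, 1.39 with medians of ratios, 0.89 with totals without mt and ribosomal protein genes, 0.85 in cells of at least 15000 UMIs and 0.89 with an upper limit of 5%. The count of members beyond 1.5-fold at 1 to 10% (1) was 2 without primitive endoderm cells and 2 with the usual chromosome 8 share, and under 1% (5) it was 3 with each cell weighted alike. The median log2 CV2 ratio of 4 members (-0.30) was -0.50 without thinning. Tubb5 under 1% (-0.24) turned to 0.20 with TMM and 0.24 with medians of ratios, and Tubb6 under 1% (-1.15) to 0.44 without 1 wild-type cell. The other 96 settings of these summary results gave no such move, and of the settings for single genes 366 gave none and 115 moved without turning the sign of a ratio whose interval left out 0. The causes were not tested, and no spread between cultures or clones could be measured. At 16 wild-type cells, members with few UMIs such as Tubb3 and Tubb2a have intervals wider than most differences.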
